A study of Homo sapiens with 4 samples.

Results

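Human embryonic stem cells that had spent 24 h in nicotinamide were set against cells that had spent 24 h in Y27632. Both treatments are small molecules added to E8, a defined medium that keeps the cells pluripotent. Nicotinamide was given at 10 mM (Nam) and Y27632 at 10 µM (Y27632), so time was matched and dose was not. RNA of each culture was hybridised to 1 Illumina BeadChip. A gene was compared when its probe had a detection p-value of at most 0.01 on at least 1 of these arrays, where the detection p-value ranks a probe's signal among negative controls. Of the 12065 genes detected on any of the 4 arrays of the series, 11155 met that rule. Cells in E8 without additive, labelled 24 h (E8), gave a further level beside each value and did not enter the difference between the treated cultures. The remaining culture, 6 days in E8 with BMP4, was used in the normalization. There was 1 array per condition, so no test was possible, and every difference below compares these arrays and has no replicate check.

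Nicotinamide is the amide form of vitamin B3. Cells recycle it into NAD, and at high doses it inhibits sirtuins and PARPs, enzymes that consume NAD. It has also been considered as an inhibitor of kinases, ROCK and casein kinase 1 among them. Y27632 inhibits ROCK, the kinase that drives contraction of actin and myosin and triggers the blebbing and death of human pluripotent cells after dissociation. A comparison of the cultures asks which transcripts differ between a molecule with many proposed targets and a ROCK inhibitor.

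The labels name the line as H9 in the characteristics and as H1 in the growth protocol, both of them established lines. Of the 4 arrays, 4 did not match the line in the characteristics when checked, so no line is named for the cultures. Levels are log2 values after background correction and quantile normalization, and differences are Nam minus Y27632 on that scale unless a fold is given. Mean signal was 528.5 on Nam, 564.7 on Y27632 and 620.5 on E8. The scanner called 18051 of 47296 probes detected on Nam, 16509 on Y27632 and 17779 on E8. Genes near the detection limit were therefore more often detected on Nam alone (858 genes) than on Y27632 alone (247 genes), and the part this plays in differences of dim genes was not tested. The 33 named probes just inside the limit, at a detection value of 0.00909, had a median level of 5.83. The 182 just outside, at 0.01039, had a median level of 5.74.

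Both cultures had the transcripts of pluripotent cells. POU5F1 (OCT4), a core factor of pluripotency, had levels of 11.94 on Nam, 12.08 on Y27632 and 12.08 on E8. Its partner SOX2 stood at 12.13 on Nam, 12.13 on Y27632 and 12.27 on E8. Markers of mesoderm, endoderm and blood vessels were mostly undetected on both arrays. Of 22 genes of primitive streak and mesoderm with a probe, 2 were detected on Nam, 2 on Y27632 and 3 on E8. Of 12 endoderm genes, 1 was detected on Nam, 2 on Y27632 and 1 on E8. Of 16 endothelial and blood genes, 2 were detected on Nam, 2 on Y27632 and 3 on E8. Other lists that a culture could hold were detected in part: 5 of 18 trophoblast and amnion genes on Nam, 3 on Y27632 and 3 on E8, and 7 of 12 neural crest genes on Nam, 4 on Y27632 and 5 on E8. Fibroblast and smooth muscle genes, some of which pluripotent cells also express, were detected in 10 of 20 cases on Nam, 11 on Y27632 and 11 on E8. Of 20 eye field and neuroectoderm genes, 13 were detected on Nam, 13 on Y27632 and 14 on E8. Of 16 genes of epithelial keratins and junctions, 10 were detected on Nam, 11 on Y27632 and 10 on E8.

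The arrays were close. Pearson's r over all probes of Nam and Y27632, which share background and probe brightness and are not replicates, was 0.989. Of the genes compared, 90.4% differed by less than 1.5-fold, the median difference was 0.032, and 45.0% lay below 0. At least 2-fold higher on Nam were 71 genes (0.636% of those compared), and at least 2-fold lower were 119 (1.07%). Most of these were dim. Among the 10050 genes detected on both arrays, 9 were 2-fold higher and 51 were 2-fold lower on Nam. Among the 6577 of these with a level of at least 8 on the brighter array, 4 were higher (0.0608%) and 31 were lower (0.471%). At 1.5-fold, 521 genes (4.67%) were higher and 545 (4.89%) lower over all genes compared, against 53 (0.806%) higher and 158 (2.40%) lower among those brighter genes. At 1.5-fold, lower genes thus clearly outnumbered higher ones among brighter genes and hardly among all genes. The 2-fold counts moved most with the background step: without it, 1 gene was higher and 16 were lower on Nam.

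**Figure D1:**
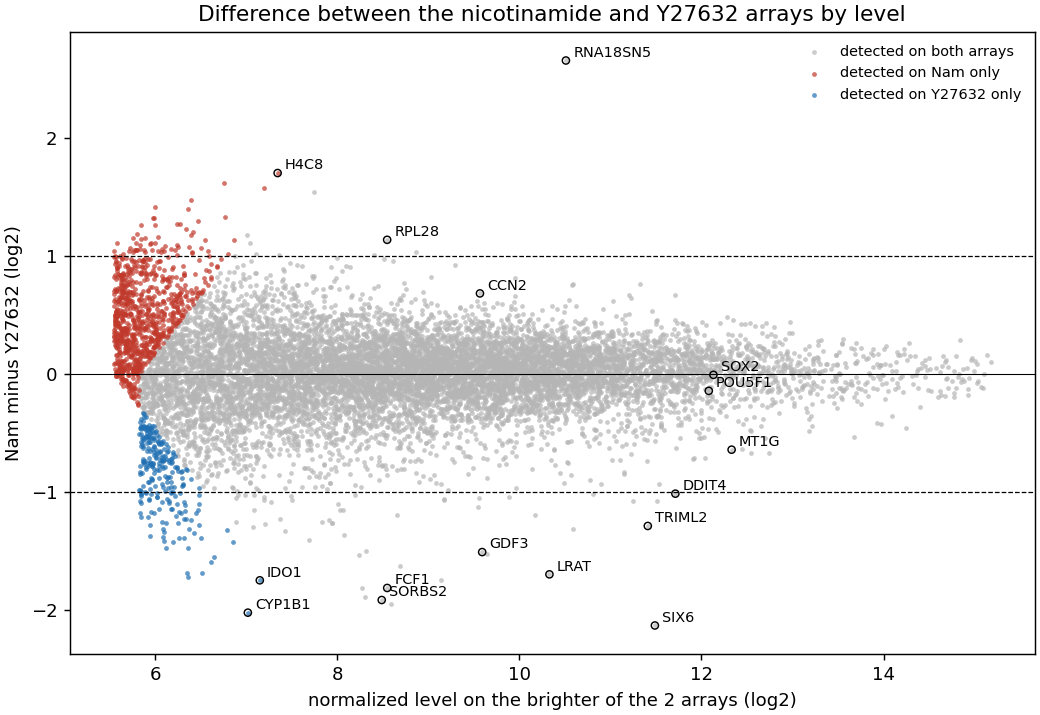
Each point is 1 of the 11155 genes compared. The x axis is its normalized level on the brighter of the Nam and Y27632 arrays (log2), the y axis is Nam minus Y27632 (log2), and colour shows on which arrays the probe was detected. Dashed lines mark a 2-fold difference. Points spread more widely at low levels, and above a level of 8 the points beyond 2-fold lie mainly below 0 (31 genes, against 4 above 0).

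Spread between probes gives a technical scale for these differences. Here a probe counted as detected if any of the 4 arrays detected it, so some were undetected on both Nam and Y27632. Over the 3086 genes with at least 2 such probes, the pooled SD of the difference between probes of a gene was 0.30. The SD of the difference over genes narrowed with level, with 0.50 below a level of 6, 0.48 between 6 and 7, 0.36 between 7 and 8, 0.29 between 8 and 10, and 0.24 above 10. Of the 30 genes called at 2-fold that had at least 2 detected probes, 22 had all probes on the same side. For 12 of the 30 the mean over probes was itself at least 2-fold, and for 22 it was at least 1.5-fold. Of the 9 such genes at a level of at least 8, the mean over probes was at least 2-fold for 7 and at least 1.5-fold for 9. Neither measure covers differences between cultures.

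The brighter genes furthest below Y27632 on the Nam array were led by SIX6, a homeobox factor of the eye field. SIX6 had levels of 9.36 on Nam, 11.49 on Y27632 and 11.25 on E8, a 4.37-fold lower signal with nicotinamide than with Y27632. SORBS2, an adaptor that links actin to adhesion sites, had levels of 6.58 on Nam, 8.49 on Y27632 and 8.57 on E8. That is 3.76-fold lower, and its 2 probes gave a mean difference of -1.78 with an SD of 0.19. For both genes Nam stood alone as low, with Y27632 near E8.

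SULF1 removes sulfate groups from heparan sulfate at the cell surface. It had levels of 6.42 on Nam, 8.31 on Y27632 and 8.27 on E8, and was 3.69-fold lower on Nam. LRAT, the enzyme that esterifies retinol for storage, had levels of 8.63 on Nam, 10.33 on Y27632 and 10.08 on E8, 3.24-fold lower on Nam. GDF3, a TGF-beta family ligand of pluripotent cells, had levels of 8.08 on Nam, 9.59 on Y27632 and 9.63 on E8, 2.84-fold lower on Nam. Nam was the lowest of these 3 arrays in each of these genes, with Y27632 near E8.

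NUP43, a component of the nuclear pore, had levels of 6.65 on Nam, 8.59 on Y27632 and 8.56 on E8 (3.86-fold lower on Nam). FCF1, a factor of 18S rRNA maturation, had levels of 6.74 on Nam, 8.55 on Y27632 and 8.73 on E8 (3.51-fold lower, with a mean over its 2 probes of -2.15 and an SD of 0.49). GNB4, a subunit of heterotrimeric G proteins, had levels of 6.47 on Nam, 8.27 on Y27632 and 8.13 on E8 (3.50-fold lower, with a probe mean of -1.49 and an SD of 0.45). Both probes of FCF1 and both of GNB4 were lower on Nam.

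PPP1R1B, a regulator of protein phosphatase 1, had levels of 7.39 on Nam, 9.13 on Y27632 and 8.87 on E8, 3.35-fold lower on Nam by this probe. Its second probe differed by only -0.48 but was undetected on both arrays, at 4.97 on Nam and 5.45 on Y27632. The size for this gene thus rests on 1 probe. PTPRB, a receptor tyrosine phosphatase, had levels of 7.06 on Nam, 8.69 on Y27632 and 8.49 on E8 (3.09-fold lower on Nam). TMT1A had levels of 6.71 on Nam, 8.24 on Y27632 and 7.86 on E8, and CFAP95 8.12 on Nam, 9.65 on Y27632 and 10.25 on E8, each 2.88-fold lower on Nam. These are the 12 lowest brighter genes. Measured against the shared E8 array, Nam was lower by between -1.15 (TMT1A) and -2.12 (CFAP95) in all 12, and Y27632 lay between -0.60 (CFAP95) and 0.38 (TMT1A).

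On the other side, RNA18SN5, a gene of 18S ribosomal RNA, had levels of 10.51 on Nam, 7.86 on Y27632 and 7.69 on E8, a 6.30-fold higher signal on Nam. This RNA is transcribed from many near-identical copies, so the copy is uncertain. On the array of the 6-day culture with BMP4, RNA18SN5 stood at 10.40, near its level on Nam, so a high signal was not particular to nicotinamide. RPL28, a protein of the large ribosomal subunit, had levels of 8.55 on Nam, 7.41 on Y27632 and 7.80 on E8 (2.20-fold higher). SH3GL2, an endophilin of synaptic vesicle uptake, had levels of 8.86 on Nam, 7.83 on Y27632 and 7.95 on E8 (2.05-fold higher). THEM6 had levels of 8.40 on Nam, 7.39 on Y27632 and 7.28 on E8 (2.01-fold higher). These were all 4 of the brighter genes that reached 2-fold on this side.

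The other 8 of the 12 highest brighter genes were between 1.76-fold and 1.96-fold higher on Nam. They were GNE, which starts sialic acid synthesis (1.96-fold), CDK12, a kinase of RNA polymerase elongation (1.94-fold), H2BC12, a histone H2B gene (1.90-fold), and ACSL1, which activates long-chain fatty acids (1.89-fold). CCDC47 (1.88-fold), C5orf24 (1.83-fold), the lysosomal mannosidase MAN2B2 (1.77-fold) and R3HDM1 (1.76-fold) completed them. The second probe of H2BC12 differed by -0.13 but was undetected on both arrays, at 5.34 on Nam and 5.47 on Y27632. The direction for H2BC12 thus rests on 1 probe. For R3HDM1 the mean over 2 probes was 0.46 with an SD of 0.50. Against the shared E8 array, Nam was higher by between 0.59 (CCDC47) and 2.82 (RNA18SN5) in all 12, and Y27632 lay between -0.39 (RPL28) and 0.37 (C5orf24).

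**Figure D2:**
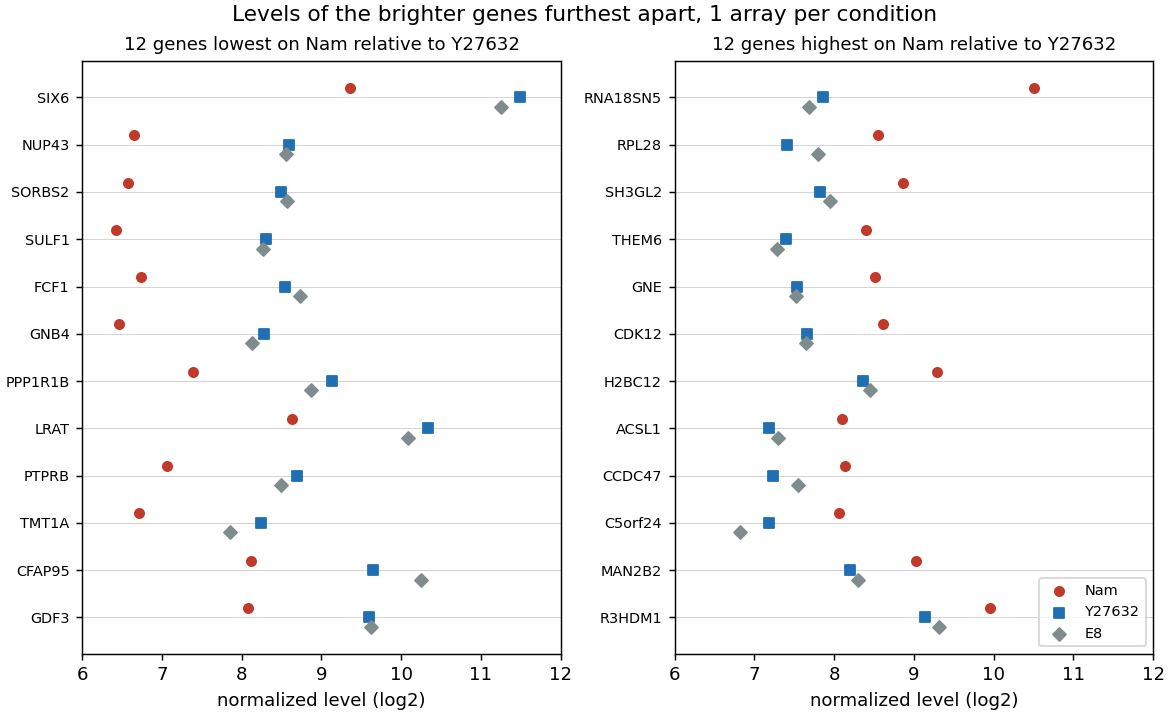
Normalized levels (log2, x axis) on the Nam, Y27632 and E8 arrays for the 12 brighter genes lowest (left) and the 12 highest (right) on Nam relative to Y27632, 1 point per array. In each gene the Nam point stands apart from the other two points, by 2.13 below Y27632 for SIX6 and by 2.66 above it for RNA18SN5.

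Genes detected on only 1 of the arrays have a bound in place of a fold, taken on the dim array against the dimmest detected probe (5.54 on Nam, 5.82 on Y27632) or against the gene's own value if that is higher. Each bound, written as at least, holds for 1 probe under the main processing and is not a minimum over probes or settings. The bound reached 2-fold for 6 genes lower on Nam and 3 higher. IDO1, which starts the breakdown of tryptophan to kynurenine, had levels of 5.40 on Nam (not detected), 7.15 on Y27632 and 7.50 on E8. By this probe it was at least 3.04-fold lower on Nam, and its second probe gave a smaller difference of -1.40. CYP1B1, an oxidising enzyme induced through the aryl hydrocarbon receptor, had levels of 5.0 on Nam (not detected), 7.02 on Y27632 and 6.53 on E8, at least 2.78-fold lower on Nam. Without background correction IDO1 differed by -0.70 and CYP1B1 by -0.75, both less than 2-fold.

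The other 4 genes with a lower bound of that size on Nam were GNG2, a G protein subunit (at least 2.48-fold), QPCT, which forms pyroglutamate at peptide ends (at least 2.36-fold), GRPR, the receptor of gastrin-releasing peptide (at least 2.14-fold), and CDC42EP5, an effector of CDC42 (at least 2.10-fold). The second probe of GRPR differed by -0.02 but was undetected on both arrays, at 4.55 on Nam and 4.57 on Y27632. Higher on Nam were H4C8, a histone H4 gene (at least 2.87-fold), VAPB, a tether of the endoplasmic reticulum (at least 2.59-fold), and the intermediate filament gene SYNM (at least 2.06-fold). VAPB had levels of 7.19 on Nam, 5.62 on Y27632 and 6.62 on E8, so Y27632 was further from E8 than Nam was. EGR1, an immediate early factor, had levels of 6.80 on Nam, 5.78 on Y27632 (not detected) and 6.17 on E8, at least 1.97-fold higher. For SNORD99, a small nucleolar RNA, the bound was 1.93-fold, and for the chaperone PPID it was 1.90-fold.

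To describe pathways, 47 gene lists were used, and their members were counted at 1.5-fold by normalized values. Against the background of 4.67% of genes higher and 4.89% lower, most lists held few such members. Among lists of at least 8 measured members, the shares lower on Nam were largest for eye field and neuroectoderm (8 of 15), metallothioneins (4 of 8), p53 targets (6 of 20) and fibroblast and smooth muscle markers (3 of 11). The shares higher on Nam were largest for clustered histone genes (5 of 15) and YAP targets (5 of 16). Members whose bound is smaller than 1.5-fold are included in these counts. In such bulk samples, fewer cells of a type and less RNA per cell cannot be told apart.

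**Figure D3:**
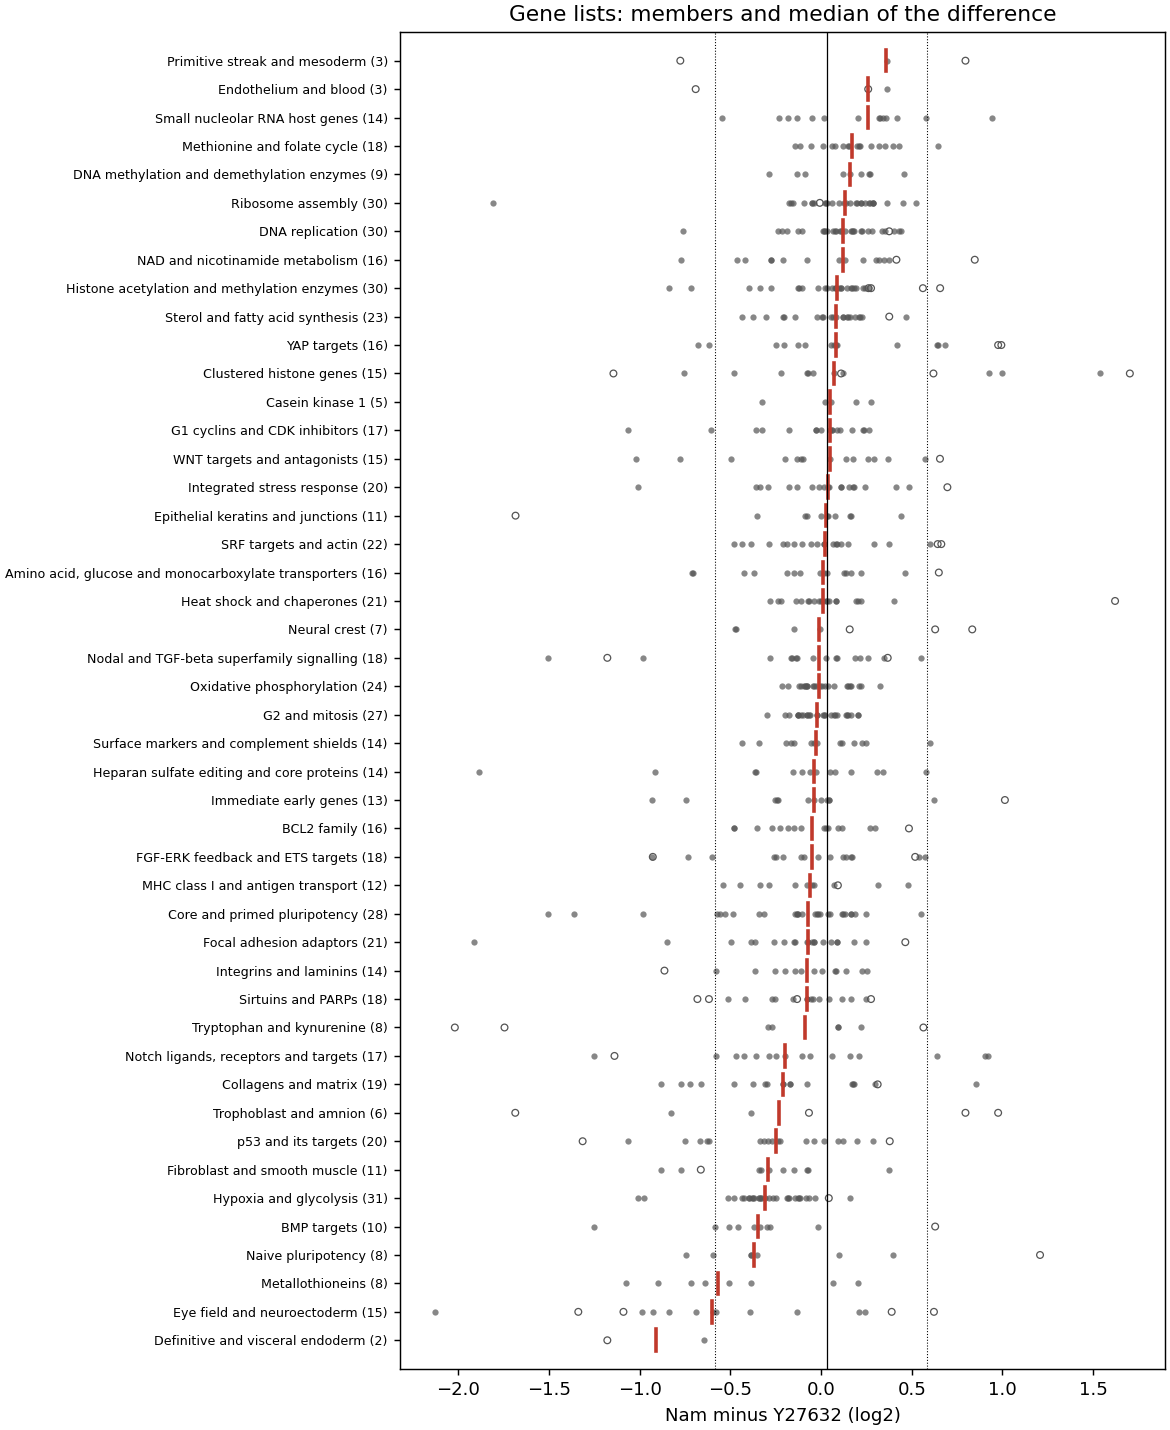
Each row is a gene list with its number of measured members. Points are members placed by Nam minus Y27632 (log2), filled where both arrays detected the probe and open where 1 did. Red bars are list medians, the solid line is the median of all genes compared (0.032), and dotted lines mark 1.5-fold. Eye field and neuroectoderm (median -0.60) and metallothioneins (median -0.57) lie left, and oxidative phosphorylation (median -0.01) and G2 and mitosis (median -0.02) stay between the dotted lines.

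Eye field and neuroectoderm genes, factors that pattern the anterior neural plate, had a median of -0.60 over 15 measured of 20 with a probe. On Nam 8 were at least 1.5-fold lower and 1 higher. With undetected values at their bounds, the median was -0.56. Besides SIX6, the better measured of these were SOX21, OTX2 and PMEL. SOX21, a factor of neural progenitors, had levels of 9.57 on Nam, 10.49 on Y27632 and 10.77 on E8 (1.90-fold lower on Nam). OTX2, a factor of forebrain and of primed pluripotency, had levels of 6.97 on Nam, 7.81 on Y27632 and 8.19 on E8 (1.79-fold lower), with a mean over 2 probes of -0.81 and an SD of 0.04. PMEL, a melanosome protein of the retinal pigment epithelium, had levels of 9.01 on Nam, 9.61 on Y27632 and 9.78 on E8 (1.51-fold lower).

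HESX1, a factor of the anterior neural plate, was dim, with levels of 5.91 on Nam, 6.90 on Y27632 and 6.70 on E8. POU3F1 was also dim, at 6.20 on Nam, 6.89 on Y27632 and 6.37 on E8, and stood above E8 on the Y27632 array. OLIG3 (at least 1.47-fold lower on Nam) and PAX6 (at least 1.23-fold lower) were not detected on Nam, and PAX6 was not detected on E8 either. Several brighter members of the list were close between the arrays. The neural progenitor gene SOX3 differed by -0.13, the neuronal tubulin TUBB3 by 0.21 and SOX11 by 0.24. ZIC1, not detected on Y27632, was the member counted as higher, with a bound of 1.10-fold. Its E8 level of 6.08 was above both treated arrays.

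The core and primed pluripotency list (28 of 28 measured) had a median of -0.07, with 3 members at least 1.5-fold lower on Nam and 0 higher. The 3 were GDF3, given above, PRDM14 and NODAL. PRDM14, a repressor that holds cells in the pluripotent state, had levels of 6.71 on Nam, 8.08 on Y27632 and 8.21 on E8 (2.57-fold lower on Nam), with a probe mean of -1.04 and an SD of 0.45. NODAL, the ligand that maintains primed pluripotency through SMAD2 and SMAD3, had levels of 8.24 on Nam, 9.22 on Y27632 and 9.07 on E8 (1.98-fold lower). NANOG had levels of 9.95 on Nam, 10.53 on Y27632 and 10.53 on E8. Its difference of -0.57 was just short of 1.5-fold, and its second probe gave -0.66.

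Below that size on the same side were DPPA2 (-0.56), the zinc finger factor ZIC2 (-0.53) and the telomere protein TERF1 (-0.49). LIN28A (0.04), the DNA methyltransferase DNMT3B (-0.13), DPPA4 (-0.10), SALL4 (0.17) and the adhesion gene CDH1 (0.16) were close between arrays. Of 8 measured genes of naive pluripotency, 2 were at least 1.5-fold lower on Nam (KLF4 at -0.75 and DPPA3 at -0.60) and 1 was higher (TFCP2L1, at least 1.51-fold). The 2 probes of KLF4 gave a mean of -0.38 with an SD of 0.52.

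Signalling lists mixed directions. In the Nodal and TGF-beta list (18 measured, median -0.01), the ligands GDF3 and NODAL were lower on Nam, and the feedback inhibitors differed by less than 1.5-fold, LEFTY1 by 0.19, LEFTY2 by 0.55 and SMAD7 by -0.28. The receptors ACVR1B (0.09), ACVR2B (0.22) and TGFBR2 (0.03) were close. The third lower member, the inhibitor CER1, was not detected on Nam or E8 (at least 1.36-fold lower on Nam), and its 2 probes gave a mean of -0.58 with an SD of 0.85.

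BMP targets lay lower on Nam in 9 of 10 cases, against 45.0% of all genes compared. Their median was -0.35, and 2 reached 1.5-fold on that side. ID1, an inhibitor of differentiation factors, had levels of 9.01 on Nam, 9.51 on Y27632 and 9.44 on E8, a difference of -0.51. The related genes ID2 (-0.30) and ID3 (-0.37), the feedback inhibitor SMAD6 (-0.46) and the decoy receptor BAMBI (-0.34) had the same sign. HEY1, shared with the Notch list, had levels of 6.58 on Nam, 7.83 on Y27632 and 7.73 on E8 (2.38-fold lower on Nam), although its 2 probes gave a mean of -0.57 with an SD of 0.96. BMP7, a ligand, differed by -0.59. MSX1, not detected on Y27632, was the member above 0, and its E8 level of 6.52 was above both treated arrays.

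Among Notch genes (17 measured, median -0.20), 2 were lower and 3 higher at 1.5-fold. The receptors NOTCH1 (-0.20), NOTCH2 (0.06) and NOTCH3 (-0.29) were within 1.5-fold, and so was the target HES1 (-0.47). HES4 (0.64), the ligand JAG2 (0.90, with a probe mean of 0.33 and an SD of 0.82) and DNER (0.92) were higher on Nam. For JAG2, Y27632 was further from E8 (-0.57) than Nam was (0.33). Among WNT genes (15 measured, median 0.05), the antagonist FRZB had levels of 6.06 on Nam, 7.08 on Y27632 and 7.26 on E8 (2.03-fold lower on Nam). The receptor FZD5 had levels of 7.53 on Nam, 8.31 on Y27632 and 8.35 on E8 (1.72-fold lower). AXIN2, a widely used target of the pathway, differed by 0.14. The 5 measured genes of casein kinase 1, which phosphorylates beta-catenin, lay between -0.33 (CSNK1D) and 0.28 (CSNK1A1).

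In the list of FGF and ERK feedback genes (18 measured, median -0.05), 4 were at least 1.5-fold lower on Nam and 0 higher. IER3, an early response gene, had levels of 10.59 on Nam, 11.53 on Y27632 and 11.58 on E8 (1.91-fold lower on Nam). DUSP5, a phosphatase of ERK, had levels of 10.67 on Nam, 11.40 on Y27632 and 10.93 on E8 (1.66-fold lower), here with Y27632 as the high array. ETV4, an ETS factor, had levels of 9.49 on Nam, 10.09 on Y27632 and 10.05 on E8 (1.52-fold lower), and both of its probes were lower. ETV1, not detected on Nam, was at least 1.45-fold lower. The feedback inhibitors SPRY2 (-0.11), SPRY4 (-0.09) and DUSP6 (-0.02) were close. MYC, a growth factor-induced oncogene, had levels of 11.03 on Nam, 10.41 on Y27632 and 10.43 on E8, 1.54-fold higher on Nam with the same mean of 0.62 over 2 probes. FOS (0.03), DUSP1 (0.04) and ATF3 (0.04), other immediate early genes, did not follow EGR1.

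The transcripts of the kinases that Y27632 inhibits were close between the cultures. ROCK1 had levels of 7.67 on Nam, 7.72 on Y27632 and 7.75 on E8, although its second probe differed by 0.54. By its brighter probe, ROCK2 had levels of 14.61 on Nam, 14.77 on Y27632 and 14.77 on E8. By its second probe the levels were far lower, at 8.19 on Nam, 7.98 on Y27632 and 8.43 on E8, so the abundance of ROCK2 is uncertain. The differences by the 2 probes had opposite signs, with a mean of 0.02 and an SD of 0.26. The transcript levels of these genes are not measures of kinase activity.

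SRF and its cofactors switch on actin genes, and 22 measured genes of this group had a median of 0.02, with 3 higher and 0 lower at 1.5-fold. ACTB had levels of 14.62 on Nam, 14.61 on Y27632 and 14.69 on E8. TAGLN (transgelin), which binds actin filaments in smooth muscle, had levels of 7.67 on Nam, 7.96 on Y27632 and 9.30 on E8. Here both treated cultures were low, by -1.64 for Nam and -1.35 for Y27632 against the shared E8 array, and the difference between them was -0.29 by this probe and 0.48 by the other. MRTFB, a cofactor of SRF, differed by 0.60.

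YAP targets respond to tension and cell shape. Of 16 measured, 5 were at least 1.5-fold higher on Nam and 2 lower, with a median of 0.08. CCN2 (CTGF) had levels of 9.57 on Nam, 8.88 on Y27632 and 9.30 on E8, 1.61-fold higher on Nam, with a mean over 2 probes of 0.48 and an SD of 0.29. CCN1 (CYR61) had levels of 8.69 on Nam, 8.05 on Y27632 and 8.45 on E8, 1.56-fold higher. For both genes, by these probes, E8 lay between the treated arrays, with Nam above it (0.27 for CCN2 and 0.25 for CCN1) and Y27632 below it (-0.41 and -0.40). By the second probe of CCN2 the levels were 7.99 on Nam, 7.71 on Y27632 and 8.13 on E8, with E8 highest. NUAK2, by its brighter probe, had E8 between the treated arrays, at 6.91 on Nam, 6.27 on Y27632 and 6.69 on E8. Its 2 probes gave a mean of 0.36 with an SD of 0.39, so the mean was less than 1.5-fold, as it was for CCN2. IGFBP3 (at least 1.86-fold higher) and ARHGEF17 (at least 1.25-fold) were not detected on Y27632. For ARHGEF17, Y27632 was further from E8 (-0.74) than Nam was (0.25). The targets AMOTL2 (0.09), F3 (0.09) and CRIM1 (0.06) were close, and AXL was lower on Nam (-0.68).

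Of 19 measured collagens and matrix genes, 4 were at least 1.5-fold lower and 1 higher, with a median of -0.21. COL1A2 had levels of 8.76 on Nam, 9.65 on Y27632 and 9.73 on E8 (1.84-fold lower on Nam, with a probe mean of -0.66 and an SD of 0.31). COL5A2 had levels of 9.62 on Nam, 10.39 on Y27632 and 10.39 on E8 (1.71-fold lower). COL4A2 (-0.72) and THBS2 (-0.66) were the others, and THBS1 was higher on Nam (0.86). Fibroblast and smooth muscle markers, some of them the same collagens, were below 0 in 10 of 11 measured cases (45.0% of all genes), with a median of -0.29 and 3 at 1.5-fold, and their part in the matrix result was not tested. VIM, a marker of that list, differed by -0.07.

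Of 21 focal adhesion adaptors, SORBS2 and FERMT1 were lower on Nam and the median was -0.07. FERMT1 (kindlin-1), which activates integrins, had levels of 7.69 on Nam, 8.54 on Y27632 and 8.59 on E8 (1.81-fold lower). VCL (0.09), PTK2 (0.01) and TLN1 (-0.26), core members of these sites, were within 1.5-fold. Integrins and laminins had a median of -0.08 over 14 genes. In the heparan sulfate list (14 measured, median -0.04), HS6ST2, which adds sulfate groups that SULF1 can remove, had levels of 6.12 on Nam, 7.04 on Y27632 and 7.15 on E8 (1.89-fold lower on Nam, with both probes lower). SULF2, the relative of SULF1, differed by 0.17.

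Metallothioneins are small cysteine-rich proteins that bind zinc and copper, and they are switched on by the zinc-sensing factor MTF1 at metal response elements. The 6 metallothionein genes measured were all lower on Nam than on Y27632, 4 of them by at least 1.5-fold. Because metallothionein genes are near-identical, their probes may share signal, and the genes are not independent. The bases just upstream of MT1X and MT1H are shown because these are the 2 lowest members with a single promoter entry. They are the 250 bases before the gene start, 5′ to 3′ on the plus strand of GRCh38.p14, from RefSeq. MT1X lies at chr16:56682220-56682469 and MT1H at chr16:56669564-56669813. Capitals mark the searched letters TGCACNC and TGCGCNC, read on either strand with overlaps allowed.
MT1X upstream: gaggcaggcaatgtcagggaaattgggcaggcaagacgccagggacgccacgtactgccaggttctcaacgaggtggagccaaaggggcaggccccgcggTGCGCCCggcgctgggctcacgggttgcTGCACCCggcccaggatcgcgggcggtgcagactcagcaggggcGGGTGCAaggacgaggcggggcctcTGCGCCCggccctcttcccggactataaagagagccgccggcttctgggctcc
MT1H upstream: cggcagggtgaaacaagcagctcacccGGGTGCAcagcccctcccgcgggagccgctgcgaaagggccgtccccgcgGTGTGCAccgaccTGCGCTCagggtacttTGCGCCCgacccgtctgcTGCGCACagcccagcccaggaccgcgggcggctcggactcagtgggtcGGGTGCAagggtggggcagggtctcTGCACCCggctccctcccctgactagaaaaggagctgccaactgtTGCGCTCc

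MT1X held 4 matches and MT1H 8. Of the 8 measured members of the list, 5 had a promoter entry and 4 of these held the motif in at least 1 entry. Among all 35116 promoter entries, each counted singly, the share was 24.8%, so these shares are not like for like. A match is a description of the letters and not a binding site. MT1E had levels of 10.17 on Nam, 11.24 on Y27632 and 10.75 on E8 (2.11-fold lower on Nam). MT1X had levels of 9.88 on Nam, 10.77 on Y27632 and 10.73 on E8 (1.86-fold lower). In MT1E the E8 level lay between the treated arrays, and in MT1X it was near Y27632.

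MT1H had levels of 8.93 on Nam, 9.65 on Y27632 and 9.57 on E8 (1.64-fold lower on Nam, with a mean over 2 probes of -1.05 and an SD of 0.48). MT1G had levels of 11.69 on Nam, 12.33 on Y27632 and 12.15 on E8 (1.56-fold lower). MT2A had levels of 8.74 on Nam, 9.25 on Y27632 and 9.26 on E8 (1.42-fold lower). MT1F had levels of 11.74 on Nam, 12.12 on Y27632 and 11.94 on E8 (1.30-fold lower). Nam was the lowest of the 3 arrays for each of these genes. The factor MTF1 (0.21) and the zinc exporter SLC30A1 (0.07), another MTF1 target, did not share the direction.

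Genes of hypoxia and glycolysis were lower on Nam in 29 of 31 cases, against 45.0% of all genes compared, mostly by small amounts, with a median of -0.31. At 1.5-fold 2 were lower and 0 higher. Many of these genes are targets of the hypoxia-inducible factors, which bind a short element. DDIT4, an inhibitor of mTORC1 induced by hypoxia and other stress, is the lowest member, and its 250 upstream bases, at chr10:72273674-72273923 on the plus strand of GRCh38.p14 from RefSeq, show the searched letters ACGTG and GCGTG in capitals (either strand, overlaps allowed).
DDIT4 upstream: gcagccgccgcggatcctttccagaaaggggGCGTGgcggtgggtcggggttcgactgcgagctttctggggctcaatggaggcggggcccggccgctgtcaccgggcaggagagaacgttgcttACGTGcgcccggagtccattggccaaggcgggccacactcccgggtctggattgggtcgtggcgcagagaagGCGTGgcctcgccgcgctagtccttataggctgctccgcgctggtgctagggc

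DDIT4 held 3 matches. P4HA2, a collagen prolyl hydroxylase that differed by -0.51, held 0 in its own 250 upstream bases, which says only that these letters are not in that window. Of the 31 members, 27 had a promoter entry and 22 of these held the motif in at least 1 entry. Among all promoter entries, each counted singly, the share was 43.2%. Genes with several entries have more chances, so these shares are not like for like. DDIT4 had levels of 10.70 on Nam, 11.71 on Y27632 and 11.88 on E8 (2.02-fold lower on Nam). NDRG1, another gene induced by low oxygen, had levels of 6.15 on Nam, 7.13 on Y27632 and 7.04 on E8 (1.97-fold lower).

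Among the remaining members of the list, the sign was mostly shared and the size varied. The mitophagy receptor BNIP3 had levels of 12.70 on Nam, 13.18 on Y27632 and 13.15 on E8, a difference of -0.48. The glucose transporters SLC2A3 (-0.43) and SLC2A1 (-0.37) and the enzymes GPI (-0.40), ALDOA (-0.38), PGK1 (-0.33), HK2 (-0.31), PKM (-0.29) and TPI1 (-0.26) were lower on Nam. Several had at least 2 probes that gave nearly the same value, such as ALDOA (mean -0.36, SD 0.03). ENO1 (-0.08) and LDHA (-0.14) were close between arrays, and GAPDH, often used as a reference gene, differed by -0.11 with a mean over 3 probes of -0.15. VEGFA (0.16) and PDK1 (0.04) were the 2 members above 0. Oxidative phosphorylation genes had 13 of 24 members below 0, a median of -0.01 and 0 members at 1.5-fold.

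Of 20 measured p53 targets, 6 were at least 1.5-fold lower on Nam and 0 higher, with a median of -0.25. CDKN1A (p21), which arrests the cell cycle, had levels of 8.10 on Nam, 9.17 on Y27632 and 9.07 on E8 (2.09-fold lower on Nam). ZMAT3 had levels of 11.81 on Nam, 12.44 on Y27632 and 12.77 on E8 (1.55-fold lower), although the mean over its 3 probes was -0.29 with an SD of 0.30. DDB2, a DNA repair factor, had levels of 5.91 on Nam, 6.66 on Y27632 and 6.96 on E8 (1.68-fold lower). PHLDA3 (-0.67) and GADD45A (-0.62) also had Y27632 levels above Nam. The 2 probes of GADD45A gave a mean of -0.36 with an SD of 0.36. GDF15, not detected on Nam or E8, was at least 1.45-fold lower on Nam than on Y27632. The pro-apoptotic targets BAX (0.02), PMAIP1 (0.09) and BBC3 (-0.23) were close, and of 16 BCL2 family genes 0 reached 1.5-fold in either direction.

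**Figure D4:**
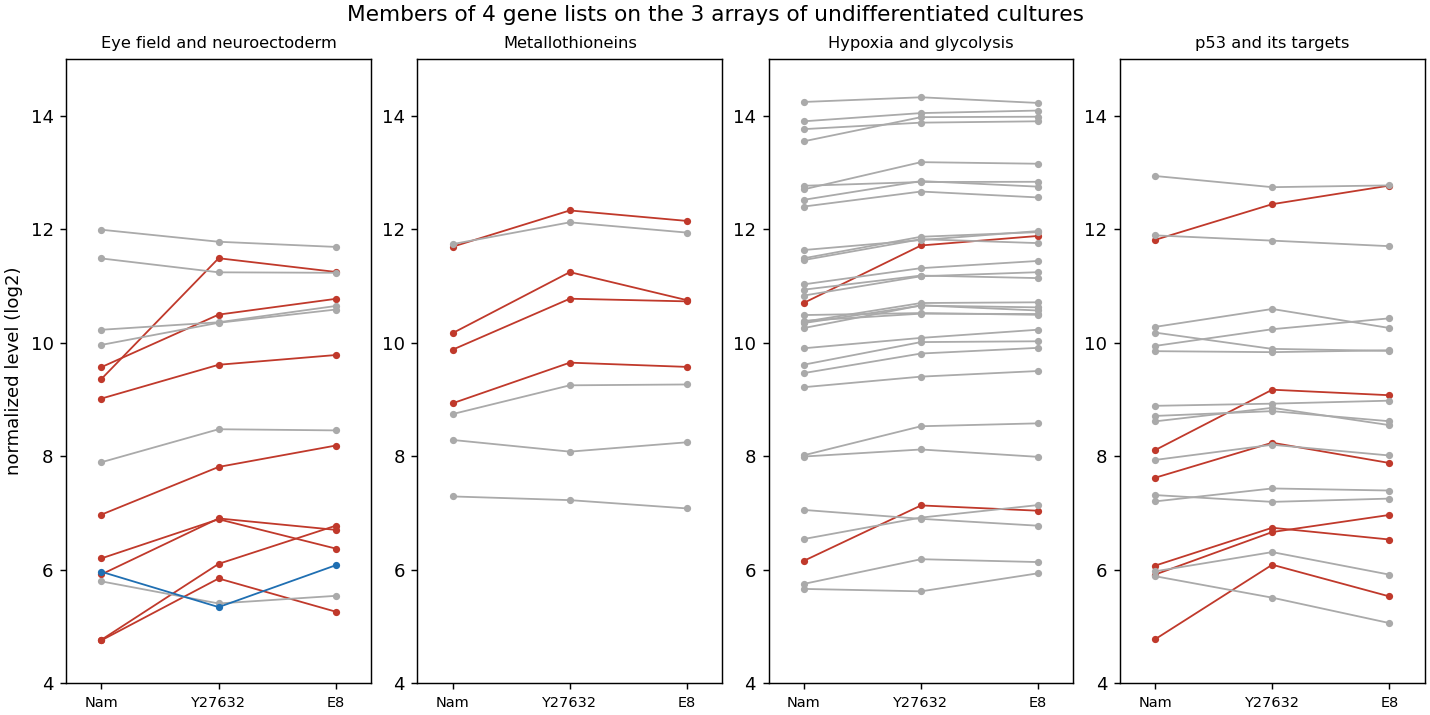
Normalized level (log2, y axis) of each measured member of 4 gene lists on the Nam, Y27632 and E8 arrays (x axis), 1 point per array joined by a line for each gene. Red lines are genes at least 1.5-fold lower on Nam than on Y27632, blue lines at least 1.5-fold higher, and grey lines the rest. In the metallothionein panel the 6 metallothioneins have their low point on Nam, and in the hypoxia panel most lines tilt by small amounts, with a list median of -0.31.

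Genes that handle nicotinamide and NAD were mostly alike. Of 16 measured, 1 was at least 1.5-fold higher (NMNAT1, not detected on Y27632, at least 1.05-fold) and 1 lower. The lower one was NMRK2, a nicotinamide riboside kinase, with levels of 7.68 on Nam, 8.45 on Y27632 and 8.39 on E8 (1.71-fold lower on Nam, with both probes lower). NAMPT, the rate-limiting enzyme that returns nicotinamide to NAD, had levels of 9.02 on Nam, 8.89 on Y27632 and 9.02 on E8. Its 2 probes differed in sign, with a mean of -0.15 and an SD of 0.40. NNMT, the methyltransferase for nicotinamide, had 1 probe, and its signal was under the detection limit on all 4 arrays. Among 18 sirtuin and PARP genes, SIRT1 differed by -0.04 and PARP1 by 0.16, and the 2 members counted as lower, SIRT2 and PARP9, were not detected on Nam (at least 1.36-fold and 1.51-fold). For PARP9 the mean over 2 probes was -0.20 with an SD of 0.59, so its probes differed in sign.

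Methylation of nicotinamide uses S-adenosylmethionine, and genes of the methionine and folate cycle were below 0 in 3 of 18 cases and above it in 15, where 45.0% of all genes compared were below 0. Their median was 0.17. Only ODC1, the first enzyme of polyamine synthesis, reached 1.5-fold, with levels of 11.23 on Nam, 10.59 on Y27632 and 10.52 on E8 (1.56-fold higher). MAT2A, which makes S-adenosylmethionine, differed by 0.43, MTHFD1 by 0.39 and AHCY by 0.32. In the tryptophan list (8 measured), IDO1 and CYP1B1 stood apart from AHR, the receptor that induces CYP1B1, which differed by -0.27, and from TIPARP, another target of AHR, at 0.22.

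Of 30 DNA replication genes, 6 were below 0 and 24 above, where 45.0% of all genes compared were below 0. Their median was 0.12, near that of all genes, and GINS4 was the 1 member at 1.5-fold, on the lower side (6.76 on Nam, 7.52 on Y27632 and 8.63 on E8). The 27 G2 and mitosis genes had a median of -0.02 and 0 members at 1.5-fold, with MKI67 at 0.16 and PLK1 at -0.30. Ribosome assembly genes had a median of 0.13 over 30 members, where NOP56 (0.28), NCL (0.22) and POLR1B (0.52) contrast with FCF1. Small nucleolar RNA host genes had a median of 0.26 over 14 members. SNHG12 was the 1 at 1.5-fold, with levels of 7.48 on Nam, 6.54 on Y27632 and 5.92 on E8 (1.92-fold higher).

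Of 85 genes of small nucleolar RNAs, 66 were above 0, compared with 5836 of 10639 protein-coding genes, and 15 were at least 1.5-fold higher on Nam and 3 lower, with a median of 0.24. Over all genes compared, the shares at 1.5-fold were 4.67% higher and 4.89% lower. Many of these small nucleolar RNAs lie in introns of host genes and are dim on the array, near the limit where Nam detected more probes. Clustered histone genes went both ways, with 5 of 15 higher and 2 lower. H2BC5 had levels of 7.74 on Nam, 6.20 on Y27632 and 6.49 on E8 (2.91-fold higher), whereas H2BC9 differed by -0.76 and H1-2 by -0.05. Histone genes are near-identical, and their probes may share signal.

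Chromatin regulators and the lists of integrated stress response and heat shock genes were largely even. Of 30 histone acetylation and methylation enzymes, KDM4C (-0.84) and KAT7 (-0.71) were lower on Nam, HDAC9 was higher by its brighter probe (at least 1.36-fold, with a mean over 2 probes of 0.02 and an SD of 0.91), and HDAC1 differed by 0.27. Of 9 genes of DNA methylation and demethylation, 0 reached 1.5-fold. In the integrated stress response list, DDIT4 was the lower member, CHAC1 was not detected on Y27632 or E8, ASNS differed by 0.49 and ATF4 by 0.02. Heat shock genes had a median of 0.01, and sterol and fatty acid synthesis genes a median of 0.08 with 0 of 23 at 1.5-fold. Of the surface markers, CD55, a shield against complement, had levels of 6.81 on Nam, 7.25 on Y27632 and 5.92 on E8, so both treated arrays were above E8, and CD59, another shield, was higher on Nam (0.60).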

How the data were processed

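Per the file headers, the deposited non-normalized table holds probe signals as intensity with their detection p-values, and the authors' second table, used as an alternative, gives normalized log2 values. The sources used here do not give the scanner software or the method behind the second table. Its values equal those of the series matrix, their scale is log2 without centring of genes, and each column has a median of 5.58. Signals were processed with limma 3.58.1 in R 4.3.3 (neqc: normal-exponential background from detection p-values, offset of 16, quantile normalization over 4 arrays, log2), which was tested on simulated data. That simulation scored bright probes only and gave all arrays the same background, so it does not cover dim genes. The offset understates changes of dim genes. Tables were made with pandas 2.3.3 in Python 3.11.15.

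The platform annotation named 30105 of 47296 probes by 1 symbol and 8 by several, and 17183 are unnamed here. A gene was represented by its brightest detected probe. Named genes are the 12 highest and 12 lowest detected on both arrays at a level of at least 8, the 6 largest bounds each way, a set of always-reported genes, and list members that were extreme or at least 1.5-fold. Other members named in the text were chosen after their values were seen. The members and the 47 lists were chosen with earlier results of these data known. In the lists, 48 genes had no probe, and the result of 1 list is not reported here. Genes of the Y chromosome and the X-inactivation centre (18) were left out. There were 11 processing alternatives. Labels name no separate cultures or batches. The number of arrays limits the precision.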

Additional observations from a re-analysis of the deposited data

How the results depend on the processing

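The counts of genes at least 2-fold higher and lower on Nam (71 and 119) depended on the processing of dim signals. Without background correction they were 1 and 16, with an offset of 50 they were 6 and 30, with the authors' normalized values 27 and 63, with only genes detected on both arrays 9 and 51, and at a level of at least 8 they were 4 and 31. Median scaling gave 42 higher and 111 lower. Lower calls outnumbered higher calls in each of these settings. With no detection filter and with a detection p-value of at most 0.05 the counts were 71 and 145, over the 2 arrays alone 54 and 106, over 3 arrays 75 and 124, and with the mean over detected probes 67 and 109. Of the 190 genes called at 2-fold, 36 kept their call on the same side with an offset of 50, 17 without background correction and 87 with the authors' values. Only eye field and neuroectoderm (-0.60) and endoderm (-0.91, over 2 genes) had list medians of at least 1.5-fold, and neither changed sign in these 11 alternatives. Without background correction these medians were -0.35 and -0.37, both less than 1.5-fold. No named gene called at 2-fold changed sign, but without background correction 13 of 44 such calls stayed at 2-fold. Of the 190 called genes, 1 changed sign with no detection filter, 1 at a detection p-value of at most 0.05 and 1 with the mean over detected probes. The means over probes turned the small differences of TAGLN, NAMPT, ROCK1, ROCK2 and ACTB to the other sign, and median scaling turned that of ACTB to -0.03. No paired analysis was possible because each condition has 1 array, and for the same reason no array could be left out. Signal near background limits the dim genes.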

Other observations

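TRIML2, a gene of the TRIM-like family, had levels of 10.13 on Nam, 11.41 on Y27632 and 11.30 on E8, 2.44-fold lower on Nam, and was chosen after its value was seen. TERC, the RNA template of telomerase, had levels of 6.50 on Nam, 5.81 on Y27632 (not detected) and 5.98 on E8, at least 1.60-fold higher on Nam. Of 183 long noncoding RNA genes, 26 were at least 1.5-fold higher on Nam and 18 lower, with a median of 0.03. Of 30 miRNA genes compared, 9 were higher and 2 lower, with a median of 0.08. Over all genes compared, 4.67% were higher and 4.89% lower at 1.5-fold. The part that detection near the limit plays in these counts was not tested. These values are for the genes as annotated and not for mature miRNAs.

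Some list members, CLDN4 and PGF among them, were detected on Y27632 and on neither Nam nor E8. CLDN4, a tight junction claudin, had levels of 4.83 on Nam (not detected), 6.51 on Y27632 and 5.31 on E8, at least 1.96-fold lower on Nam. PGF, placental growth factor, had levels of 4.66 on Nam (not detected), 6.34 on Y27632 and 4.73 on E8, at least 1.74-fold lower on Nam. GABRP, a GABA receptor subunit found in trophoblast and amnion, was detected on each of these arrays. Its levels were 6.91 on Nam, 7.74 on Y27632 and 7.43 on E8. Of 12 measured genes of MHC class I and antigen transport, 0 reached 1.5-fold, with TAPBP at -0.54 and HLA-B at 0.48. HHEX, a factor of endoderm, had levels of 7.02 on Nam, 7.67 on Y27632 and 7.75 on E8, 1.57-fold lower on Nam. Among nutrient transporters, SLC7A1, a carrier of arginine and lysine, differed by 0.46, and the glucose transporter SLC2A14 by -0.71.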
